A study of Mus musculus with 8 samples.

Results

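Cytotoxic lymphocytes kill through granules that hold perforin, granzymes and a proteoglycan matrix, and 7 mouse genes of this granule were described here: Gzma, Gzmb, Gzmk, Prf1, Srgn, Ctsw and Nkg7. All probes annotated to these symbols were taken, which gave 9 of the 25697 probes on the array and 7 of its 16593 named genes. Prf1 and Srgn had 2 probes each. On release, perforin opens a path into the target cell and granzymes cleave proteins there, so that the target dies. CD8 T cells and NK cells are the usual carriers of the programme, and CD4 T cells can acquire parts of it after activation. Notch signalling, which Delta-like 4 starts by binding Notch receptors, is known to take part in the control of granzyme B and perforin genes in CD8 T cells.

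The series measured naive CD4+ T cells, sorted as CD62L+CD44-CD25-DX5-CD4+ from the spleen and from lymph nodes (axillary, brachial and inguinal) of mice of the C57BL6/NCrl strain. All groups received anti-CD3e at 10 ug/ml, plate-bound per the treatment protocol although the design text calls it soluble, and soluble anti-CD28 at 1 ug/ml. The groups differed in a plate-bound protein at 5 ug/ml, which was Delta4-Ig, an immunoglobulin fusion of Delta-like 4, or control Ig, and in the day of harvest. They were Delta4-Ig at day 3 (2 mice), control Ig at day 3 (the same 2 mice), Delta4-Ig at day 1 (mouse 1) and control Ig at day 1 (mouse 1). Mouse 1 had a second, technical array for each stimulus at day 3, so the 8 arrays stand for 6 samples. The labels give no age or sex of the mice.

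Levels are background-corrected, normalized log2 intensities, and a probe counted as detected on an array where its detection p-value lay under 0.01. Between 8940 and 10543 probes were detected per array, most of them in the Delta4-Ig sample of mouse 2 at day 3. That sample also stood apart from the rest: its correlations with the other samples over the tested probes ran from 0.826 to 0.925, and its next neighbour was the control Ig sample of the same mouse. With Delta4-Ig the difference between the mice had an SD of 1.06 on the log2 scale over all tested probes, against 0.746 with control Ig, while technical arrays differed with an SD of 0.285 and 0.284. Those technical arrays are all of mouse 1. For mouse 2, with 1 array per stimulus, the animal, its culture and its array cannot be told apart. Values at day 3 are therefore given for each mouse, and a gap between the mice may hold any of these. Each comparison was fitted with limma without a term for the mouse and with one, called the mouse-blocked fit below. The main fit is the one without the block, and it called 0 of 10744 tested probes in any comparison. The words rose and fell are used for differences with an adjusted p under 0.05 in the mouse-blocked fit, the alternative. This use was chosen because the main fit called none. No rise or fall named below therefore passed in the main fit. An RNA pool of many cells cannot tell a change in the share of cells that carry a transcript from a change per cell.

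The promoters of 3 members are shown because these genes stood for the different outcomes below: Nkg7, which rose over time, Prf1, which was measured with a large gap between mice, and Gzmb, which was not detected. RefSeq windows (GRCm38.p6) of 250 bases before to 50 after the annotated start were available for 6 of the 7 members, with 2 windows for Srgn and none for Ctsw. The windows printed are chr7:43436888-43437187 on the plus strand for Nkg7, chr10:61297586-61297885 on the plus strand for Prf1 and chr14:56262285-56262584 on the minus strand for Gzmb. Capitals mark matches, on either strand, to the letters TGGGAA of RBPJ, the DNA-binding partner of Notch, GGTGTGA of T-box factors, TGTGGT of Runx factors, GGAAGT of Ets factors, TGANTCA of AP-1 and ACGTCA of CREB.
Nkg7: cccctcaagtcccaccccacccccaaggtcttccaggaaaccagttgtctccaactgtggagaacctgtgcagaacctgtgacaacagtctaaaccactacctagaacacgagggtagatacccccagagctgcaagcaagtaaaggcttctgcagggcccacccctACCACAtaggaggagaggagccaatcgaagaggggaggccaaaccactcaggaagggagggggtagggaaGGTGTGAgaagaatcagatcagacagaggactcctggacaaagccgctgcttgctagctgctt
Prf1: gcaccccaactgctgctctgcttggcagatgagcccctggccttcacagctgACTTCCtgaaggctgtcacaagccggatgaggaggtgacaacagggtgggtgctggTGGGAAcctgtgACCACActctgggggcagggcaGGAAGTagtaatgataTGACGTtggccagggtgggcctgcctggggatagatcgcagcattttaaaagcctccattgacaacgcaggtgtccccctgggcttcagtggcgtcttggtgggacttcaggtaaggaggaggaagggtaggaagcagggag
Gzmb: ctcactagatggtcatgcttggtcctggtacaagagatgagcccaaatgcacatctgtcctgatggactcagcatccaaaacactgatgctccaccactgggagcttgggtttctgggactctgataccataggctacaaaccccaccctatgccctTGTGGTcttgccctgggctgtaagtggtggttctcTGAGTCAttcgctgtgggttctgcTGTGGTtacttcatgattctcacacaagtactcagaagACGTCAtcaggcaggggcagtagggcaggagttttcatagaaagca

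Among the 6 members with a window, the RBPJ letters were found in Prf1, at -142 from the start, and not in the windows of the others. They occur in 25.6% of all 32851 promoter windows and were found in 1 of the 7 windows of members. The Prf1 window also held Runx letters at -130, Ets letters at -198 and -108 and CREB letters at -92. Nkg7 held T-box letters at -13 and Runx letters at -83, and Gzmb held Runx letters at -93 and -34, AP-1 letters at -58 and CREB letters 4 bases past the start. The RBPJ and Ets letters can share bases, but no matches overlapped in the windows shown. T-box letters occur in 3.98% of all windows, Runx letters in 16.8%, Ets letters in 23.8%, AP-1 letters in 7.81% and CREB letters in 7.51%. These matches describe the sequence and do not show binding.

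The granzymes themselves were not detected. Gzma, which encodes a tryptase-like granzyme, Gzmb, which encodes the granzyme that cleaves after aspartate and activates caspases, and Gzmk, which encodes another tryptase-like granzyme, were each detected on 0 of 8 arrays. Their log2 levels ran from 4.71 to 5.52 for Gzma, 4.56 to 5.08 for Gzmb and 4.62 to 5.00 for Gzmk, below the lowest detected signal of every array, which ran from 5.78 to 6.46. The lowest detection p-value was 0.0589 for Gzma, 0.218 for Gzmb and 0.286 for Gzmk. Each granzyme rests on 1 probe, so these values bound the signal of that probe and no difference between groups was drawn from them. Of the 7 other granzyme genes on the array (Gzmc, Gzmd, Gzme, Gzmf, Gzmg, Gzmm and Gzmn), 0 passed the filter of detection on at least 2 arrays, and Gzmm was detected on 1 array.

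The other 4 members, Prf1, Srgn, Ctsw and Nkg7, were detected, and their 6 probes all passed the filter. The genomic span of each gene lay on chromosome 10 for Prf1 and Srgn, 19 for Ctsw and 7 for Nkg7 in GRCm38.p6.

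**Figure D1:**
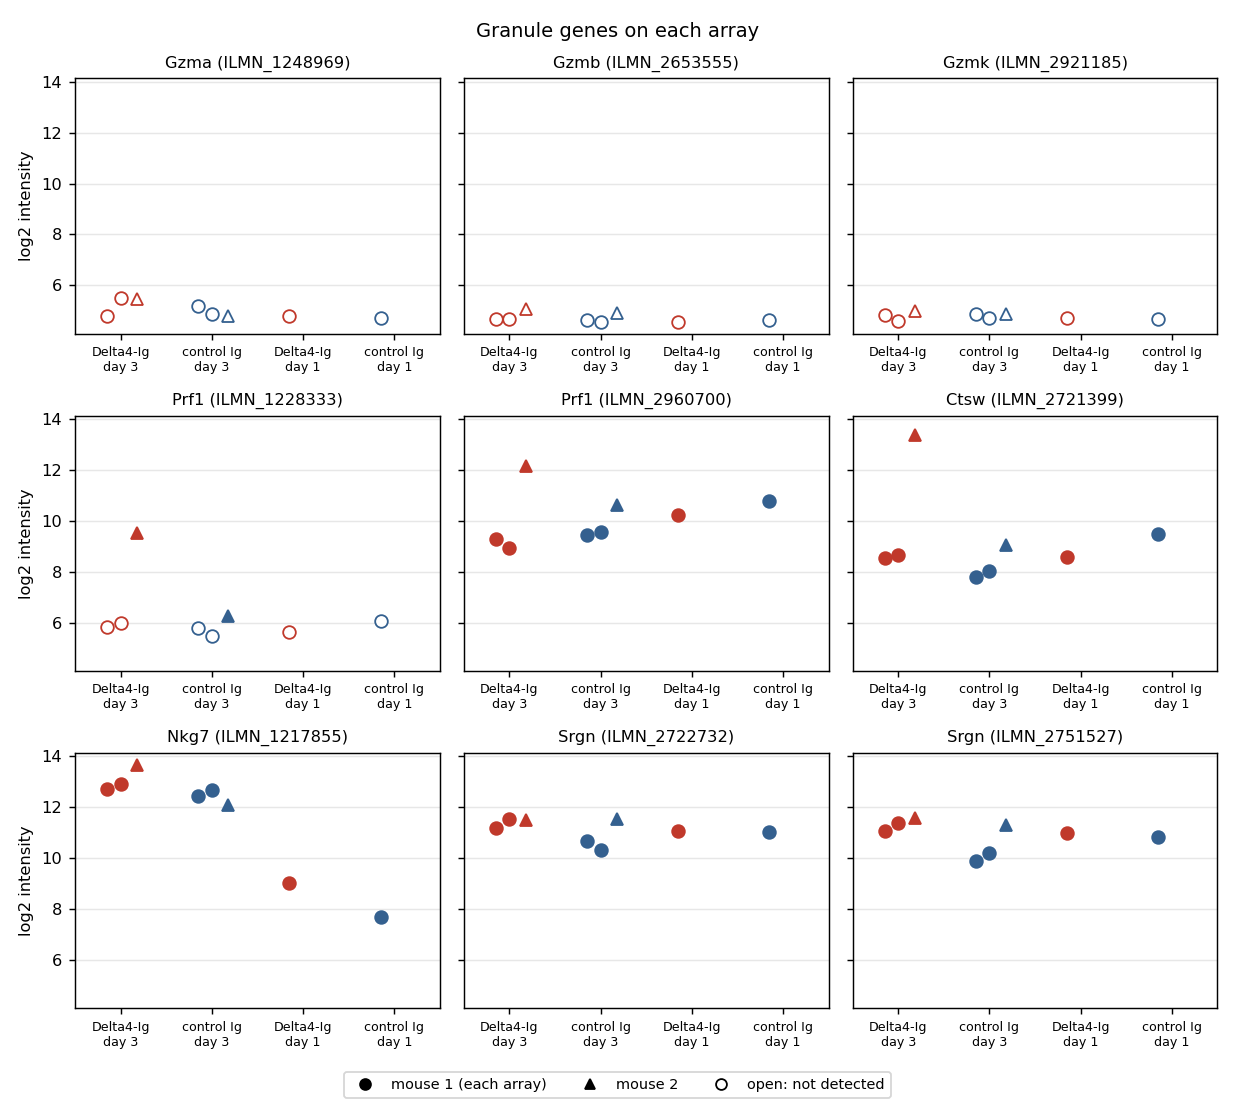
Log2 intensity of the 9 probes on each of the 8 arrays, by stimulus and day, with circles for mouse 1 (2 arrays at day 3), triangles for mouse 2 and open symbols where a probe was not detected. The 3 granzyme probes stay below 5.6 on all arrays, Nkg7 lies above 12 at day 3 and near 9 or 8 at day 1, and the Delta4-Ig sample of mouse 2 stands above the other samples for Ctsw and Prf1.

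The question of the series was what Delta4-Ig does to activated CD4+ T cells, and at day 3 none of the 6 member probes passed. In the mouse-blocked fit 0 of 6 were called, where 0.763% of all 10744 tested probes were called (0.465% higher and 0.298% lower). Without the block, 302 of the tested probes and 0 member probes lay under an unadjusted limma p of 0.05. In the mouse-blocked fit 1034 of the 10744 tested probes and 2 member probes did, those of Ctsw and Prf1 ILMN_1228333, before adjustment. The median difference of the 6 member probes was 0.82, against -0.049 over all tested probes. Delta4-Ig was above control Ig in both mice for 4 of the 6 probes, which 26.6% of all tested probes were. For Nkg7 alone both Delta4-Ig samples lay above both control Ig samples, as for 12.6% of all tested probes.

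Ctsw encodes cathepsin W, a papain-family cysteine protease found in cytotoxic lymphocytes, and of the members had the widest spread between the mice with Delta4-Ig at day 3. At day 3 it stood at 8.58 in mouse 1 and 13.36 in mouse 2 with Delta4-Ig, against 7.90 in mouse 1 and 9.04 in mouse 2 with control Ig. At day 1 it stood at 8.57 with Delta4-Ig and 9.48 with control Ig. The Delta4-Ig sample of mouse 2 was far above all other samples, while the Delta4-Ig sample of mouse 1 lay between the control Ig samples, so the groups overlapped. The deposited non-normalized intensity of the probe showed the same gap, with 8835 in mouse 2 with Delta4-Ig against 622 with control Ig.

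For Ctsw the group means at day 3 were 10.97 ± 3.38 with Delta4-Ig and 8.47 ± 0.80 with control Ig (SD, n = 2 mice each). The log2 difference was 0.68 in mouse 1, or 1.60-fold, and 4.32 in mouse 2. The difference in mouse 2 was larger in size than that of 99.8% of all tested probes. In the fit it was 2.50 with an SE of 1.57 and a 95% interval from -1.51 to 6.51 (limma adjusted p = 1.00). The mouse-blocked interval ran from 0.74 to 4.26 (limma adjusted p = 0.285). Without the Delta4-Ig sample of mouse 2 the fitted difference was 0.11, and without that of mouse 1 it was 4.89. The direction was the same in both mice, and its size rested on 1 sample.

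Prf1 encodes perforin, the pore-forming protein of the granule, and its probes gave different pictures. ILMN_2960700 was detected on 8 of 8 arrays. At day 3 it stood at 9.10 in mouse 1 and 12.16 in mouse 2 with Delta4-Ig, against 9.51 in mouse 1 and 10.63 in mouse 2 with control Ig. Delta4-Ig was lower in mouse 1 (log2 difference -0.41) and higher in mouse 2 (1.52), and the Delta4-Ig samples lay outside the control Ig samples on both sides. The fitted difference was 0.56 with an SE of 1.07 (limma adjusted p = 1.00, and 0.764 mouse-blocked), with a 95% interval from -2.19 to 3.30.

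The second Prf1 probe, ILMN_1228333, was dim. At day 3 it was detected in mouse 2 and not in mouse 1, that is, on 1 of 3 arrays per stimulus, and at day 1 on neither array. At day 3 it stood at 5.91 in mouse 1 and 9.52 in mouse 2 with Delta4-Ig, against 5.63 in mouse 1 and 6.25 in mouse 2 with control Ig. Both probes were highest in the Delta4-Ig sample of mouse 2, but in mouse 1 they differed in sign, with 0.28 for this probe, which was not detected there. The fitted difference of 1.77 with an SE of 1.20 did not pass (limma adjusted p = 1.00, and 0.419 mouse-blocked), and without the Delta4-Ig sample of mouse 2 it was -0.036.

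Nkg7 encodes a membrane protein of the granules of NK cells and cytotoxic T cells that takes part in their release. At day 3 it stood at 12.80 in mouse 1 and 13.67 in mouse 2 with Delta4-Ig, against 12.55 in mouse 1 and 12.09 in mouse 2 with control Ig. Delta4-Ig was the higher stimulus in each mouse, by 0.26 in mouse 1 and 1.58 in mouse 2. The means were 13.24 ± 0.61 with Delta4-Ig and 12.32 ± 0.33 with control Ig (SD, n = 2 mice each). The fitted difference was 0.92 with an SE of 0.46, or 1.89-fold, and its 95% interval ran from -0.25 to 2.09 (limma adjusted p = 1.00, and 0.522 mouse-blocked). In mouse 1 the difference was close to that between technical arrays of the same sample, 0.20 for Delta4-Ig and 0.25 for control Ig.

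Srgn encodes serglycin, the proteoglycan core that holds granzymes and perforin in the granule and that many blood cells make. Its probe ILMN_2751527 stood at 11.22 in mouse 1 and 11.58 in mouse 2 with Delta4-Ig, against 10.04 in mouse 1 and 11.31 in mouse 2 with control Ig at day 3. ILMN_2722732 stood at 11.36 in mouse 1 and 11.51 in mouse 2 with Delta4-Ig, against 10.50 in mouse 1 and 11.54 in mouse 2 with control Ig. The control Ig sample of mouse 1 was the lowest sample for both probes, so here the larger gap between stimuli was in mouse 1 and not in mouse 2. The differences were 1.18 in mouse 1 and 0.27 in mouse 2 for ILMN_2751527, and 0.86 in mouse 1 and -0.032 in mouse 2 for ILMN_2722732. Fitted, they were 0.73 with an SE of 0.53 and 0.41 with an SE of 0.47, and neither passed (limma adjusted p = 1.00 for both, and 0.575 and 0.762 mouse-blocked).

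**Figure D2:**
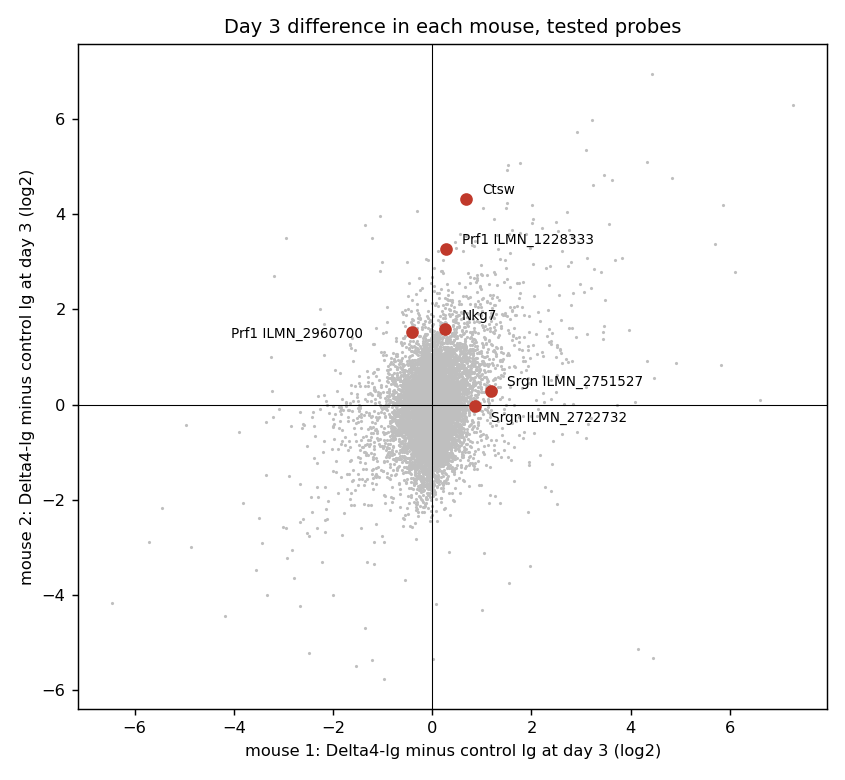
Log2 difference between Delta4-Ig and control Ig at day 3 in mouse 1 (x axis) and in mouse 2 (y axis) for the 10744 tested probes (grey) and the 6 member probes (red). Ctsw at 0.68 and 4.32 and Prf1 ILMN_1228333 at 0.28 and 3.27 lie high on the axis of mouse 2, while the Srgn probes lie to the right, on the axis of mouse 1.

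For Ctsw and Prf1 the gap between the mice with Delta4-Ig was larger than the gap between stimuli in either mouse. The gap between the mice with control Ig was smaller than the gap between stimuli in mouse 2. With Delta4-Ig, mouse 2 exceeded mouse 1 by 4.77 for Ctsw, by 3.61 and 3.06 for the Prf1 probes ILMN_1228333 and ILMN_2960700 and by 0.87 for Nkg7. With control Ig, mouse 2 exceeded mouse 1 by 1.14 for Ctsw and by 0.62 and 1.12 for the same Prf1 probes, while for Nkg7 it lay 0.46 below mouse 1. In size the Ctsw gap with Delta4-Ig was beyond that of 99.8% of tested probes. A gap of at least 2-fold between the mice was common, with 30% of all tested probes with Delta4-Ig and 13% with control Ig.

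Markers of other cells were set beside these values, because NK cells and CD8 T cells carry the same granule genes. Of 11 NK cell markers 9 had a probe, and 0 were detected on any array, among them Ncr1, Klrb1c, Tyrobp, Fcer1g and Itga2, the gene of the DX5 antigen that the sort selected against. Their summed linear level was 268 to 270 with Delta4-Ig and 262 to 274 with control Ig at day 3. Of the CD8 T cell markers Cd8a was not detected on any array, while Cd8b1 was detected on all 8. Cd8b1 stood at 9.48 in mouse 1 and 10.56 in mouse 2 with Delta4-Ig, against 9.16 in mouse 1 and 10.01 in mouse 2 with control Ig, so it was highest in the sample with the highest Ctsw and Prf1. The part of CD8 T cells in the Ctsw and Prf1 values was not tested. All 7 measured CD4 T cell markers were detected, Cd4 and Cd3e among them. The naive T cell markers, of which 4 of 5 were detected, had summed levels of 3886 in mouse 1 and 14080 in mouse 2 with Delta4-Ig and of 4870 to 6467 with control Ig at day 3. In mouse 2 with Delta4-Ig most of that sum was the level of Il7r, the IL-7 receptor. Klf2, a factor of quiescent T cells, stood at 7.32 in mouse 1 and 10.11 in mouse 2 with Delta4-Ig, against 6.65 in mouse 1 and 6.57 in mouse 2 with control Ig. Il7r stood at 11.29 in mouse 1 and 13.16 in mouse 2 with Delta4-Ig, against 9.66 in mouse 1 and 11.70 in mouse 2 with control Ig. Ccr7, a lymph node homing receptor, stood at 9.95 in mouse 1 and 11.70 in mouse 2 with Delta4-Ig, against 11.86 in mouse 1 and 11.41 in mouse 2 with control Ig. Lef1 stood at 7.67 in mouse 1 and 8.80 in mouse 2 with Delta4-Ig at day 3. With control Ig it stood at 7.71 in mouse 1 and 8.24 in mouse 2. Among the day 3 samples Il7r, Klf2 and Lef1 were highest in the Delta4-Ig sample of mouse 2, the sample with the highest Ctsw and Prf1. Ccr7 was highest in the control Ig sample of mouse 1. Over both days Klf2 and Lef1 were highest at day 1. The part of these 4 markers in the result was not tested. None of 6 mast cell and basophil markers, 1 of 10 myeloid markers (Siglech), 1 of 5 B cell markers (Cd79b) and none of 2 NKT and gamma-delta T cell markers were detected.

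The second question was how the granule genes changed between day 1 and day 3. Nkg7 rose with both stimuli and was the member that did so. With Delta4-Ig it stood at 12.80 and 13.67 at day 3, against 9.02 at day 1, and with control Ig at 12.55 and 12.09 at day 3, against 7.67 at day 1. Every day 3 sample lay well above both day 1 samples.

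In the mouse-blocked fit Nkg7 rose by 4.11 with an SE of 0.52 for Delta4-Ig, or 17.3-fold (limma adjusted p = 0.0164). For control Ig it rose by 4.54 with an SE of 0.52, or 23.3-fold (limma adjusted p = 0.0116). That fit called 1 of 6 member probes over time for Delta4-Ig, where it called 3.03% of all tested probes (2.35% higher and 0.689% lower). For control Ig it called the same 1 of 6, where it called 2.91% of all tested probes (2.14% higher and 0.773% lower). Without the block the differences were 4.21 and 4.64, each with an SE of 0.56, and they did not pass (limma adjusted p = 0.231 with Delta4-Ig and 0.222 with control Ig). Mouse 1 gave both day 1 samples, and within it Nkg7 differed between day 3 and day 1 by 3.78 for Delta4-Ig and by 4.88 for control Ig. The mouse-blocked limma adjusted p without the filter on detection was 0.186 for Delta4-Ig and 0.160 for control Ig, and without background correction it was 0.0720 and 0.0656. The blocked call therefore holds at the filter and correction used. Each day 1 group is 1 sample, and the fit takes its error from the day 3 samples.

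The rise of Nkg7 was not shown to differ between stimuli. Its change from day 1 to day 3 was 0.43 smaller with Delta4-Ig than with control Ig, with a 95% interval of this difference from -2.45 to 1.59 (limma adjusted p = 1.00). No member probe passed this test of unequal change, and over all tested probes limma called 0 with and without the block, with 64 at an unadjusted p under 0.05 without it. In order of level Nkg7 was highest with Delta4-Ig at day 3, then with control Ig at day 3, with Delta4-Ig at day 1 and with control Ig at day 1. The day 3 stimuli, next to each other in this order, did not differ beyond their error, and the day 1 stimuli were not tested.

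Ctsw and Prf1 did not share this course. Within mouse 1, Ctsw at day 3 was 0.016 above its day 1 level with Delta4-Ig and 1.58 below it with control Ig. Prf1 ILMN_2960700 at day 3 was below its day 1 level with both stimuli in mouse 1, by a log2 difference of -1.13 with Delta4-Ig and -1.28 with control Ig. Mouse-blocked, the change with control Ig was -2.49 with an SE of 0.99 for Ctsw (limma adjusted p = 0.256) and -1.76 with an SE of 0.63 for Prf1 ILMN_2960700 (limma adjusted p = 0.211), and neither passed. With Delta4-Ig the sign for Prf1 ILMN_2960700 turned with the fit, at 0.40 without the block and -0.65 with it. For the dim probe Prf1 ILMN_1228333 the change with Delta4-Ig was 0.28 within mouse 1, where it was detected on neither day. Mouse-blocked, the change of this probe was 1.03 with an SE of 0.84 and did not pass. The mean of both mice at day 3 lay 2.09 above the day 1 sample, a gap that rests on the array of mouse 2. The Srgn probes differed by -0.56 to 0.063 over time in the mouse-blocked fit, and none passed.

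At day 1 each stimulus had 1 sample, and the difference between them was not tested. Nkg7 stood at 9.02 with Delta4-Ig and 7.67 with control Ig, a 2.55-fold difference that was larger in size than that of 99.5% of tested probes. Ctsw stood at 8.57 with Delta4-Ig and 9.48 with control Ig, and Prf1 ILMN_2960700 at 10.23 with Delta4-Ig and 10.79 with control Ig, so both were lower with Delta4-Ig at this time. The Srgn probes differed by 0.038 and 0.16. Past 2-fold lay 1 of the 6 member probes, against 1.51% of all tested probes. This day 1 difference of Nkg7 was 0.94 without background correction.

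**Figure D3:**
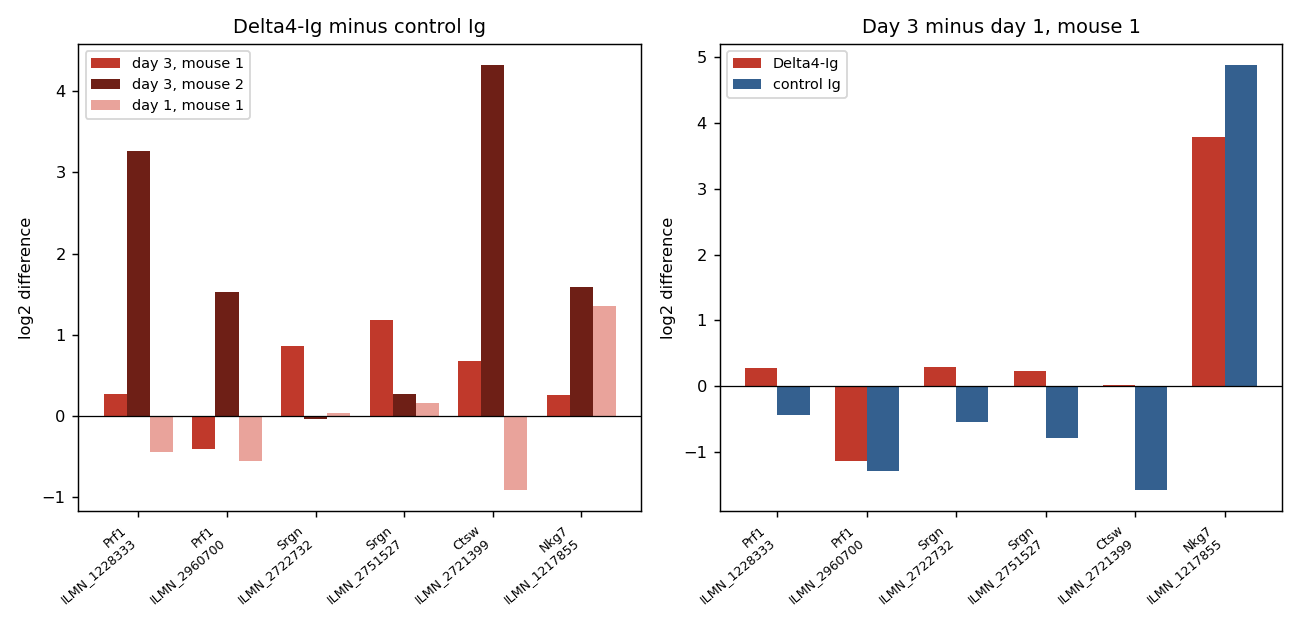
Log2 differences of the 6 member probes. The left panel gives Delta4-Ig minus control Ig at day 3 in each mouse and at day 1 in mouse 1, and the right panel gives day 3 minus day 1 in mouse 1 for each stimulus. Nkg7 at 3.78 and 4.88 is the tall pair on the right, and Ctsw and Prf1 ILMN_1228333 change sign between day 3 and day 1 on the left.

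Lists of related genes were read beside the members, and their median difference at day 3 is set against -0.053 over all 7501 tested genes. The lists share the samples and the mouse gap described above. They were chosen with earlier results of these data known, so their counts and medians describe the listed genes and test no group. Over all tested genes 26.4% were higher with Delta4-Ig in both mice and 32.3% were lower. Mouse-blocked, 0.493% of genes rose and 0.333% fell between the stimuli. Without the detection filter, or without background correction, the mouse-blocked fit called 0 probes in each comparison, so each list gene given as passing passed only with both in place.

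Among genes that move and fuse granules, more were higher than lower with Delta4-Ig. Of 24 such genes 19 were tested, and 12 were higher in both mice and 0 lower, with a median of 0.23, but 0 passed at day 3. Sytl1, whose product, a synaptotagmin-like protein, binds Rab27 on granules, stood at 9.40 in mouse 1 and 10.35 in mouse 2 with Delta4-Ig, against 7.73 in mouse 1 and 8.48 in mouse 2 with control Ig. Its difference was 1.67 in mouse 1 and 1.87 in mouse 2, nearly the same in both (limma adjusted p = 0.0680, mouse-blocked). Sytl3, of the same family, differed by 1.38 in mouse 1 and 1.19 in mouse 2, and Stx7, a syntaxin of endosome and granule fusion, by 1.23 in mouse 1 and 1.12 in mouse 2. At the low end Rab11fip3, an effector of Rab11 on recycling endosomes, differed by -0.93 in mouse 1 and 0.065 in mouse 2, and Sytl2 by -0.48 in mouse 1 and 0.097 in mouse 2.

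**Figure D4:**
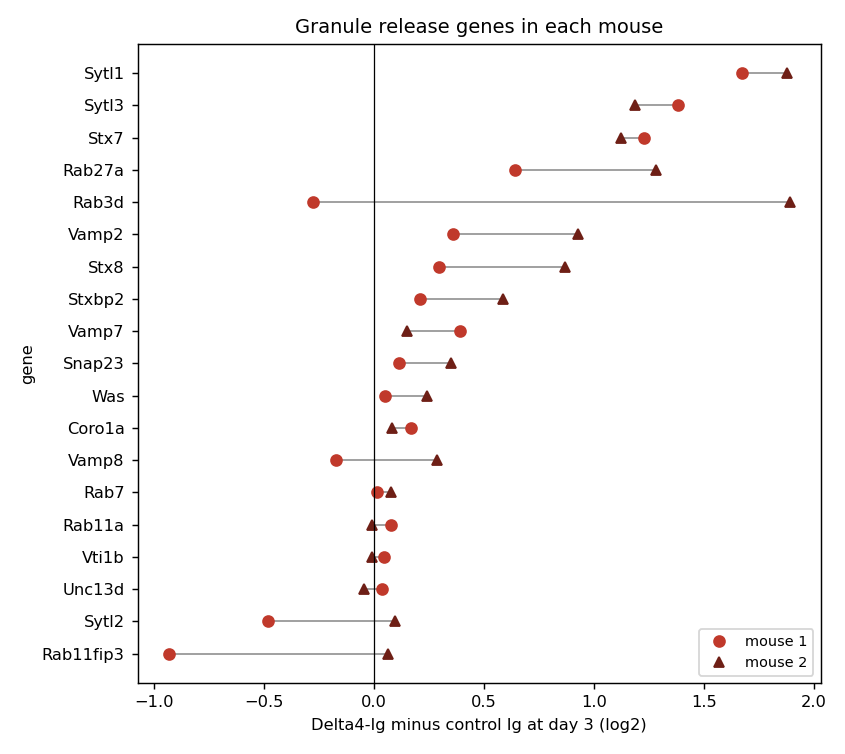
Log2 difference between Delta4-Ig and control Ig at day 3 for the 19 tested genes of granule movement and fusion, ordered by the mean of mouse 1 (circles) and mouse 2 (triangles). Sytl1, Sytl3 and Stx7 lie above 1 in both mice, and 12 of the 19 genes lie above 0 in both.

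Over time, 2 genes of this list rose with Delta4-Ig, where 2.63% of all tested genes rose and 0.493% fell. Sytl1 rose by 2.80 with an SE of 0.41 (limma adjusted p = 0.0202, mouse-blocked), and Stx7 rose by 2.12 with an SE of 0.41 (limma adjusted p = 0.0435, mouse-blocked). With control Ig 0 rose and 1 fell, where 2.41% of all tested genes rose and 0.653% fell. That gene was Sytl2, which fell by 2.58 with an SE of 0.43 (limma adjusted p = 0.0302, mouse-blocked). Without the block none of these passed, and no gene of the list passed the test of unequal change between stimuli.

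Enzymes and sorting receptors of the granule showed no call in any comparison. Of 16 such genes 13 were tested, with a median of 0.038 at day 3, 5 higher and 3 lower in both mice. Ctsb, the gene of the lysosomal protease cathepsin B, differed by 0.72 and Lamp2, of the lysosome membrane, by 0.68, while Ap3b1, a subunit of the adaptor that sorts proteins to lysosomes, differed by -0.72 and M6pr, the mannose-6-phosphate receptor, by -0.53.

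Of 10 inhibitors of granule proteases 5 were tested. Over time 1 of them rose with Delta4-Ig, where 2.63% of all tested genes rose, and 2 with control Ig, where 2.41% did. At day 3 the median difference of the 5 inhibitors was -0.30, and 2 lay higher and 1 lower with Delta4-Ig in both mice. Serpinb6b, a serpin of the family that inhibits granule proteases, rose by 3.89 with an SE of 0.65 for Delta4-Ig (limma adjusted p = 0.0297, mouse-blocked). For control Ig it rose by 4.61 with an SE of 0.65 (limma adjusted p = 0.0190, mouse-blocked). Serpinb6a, a close relative, rose by 2.34 with control Ig (limma adjusted p = 0.0433, mouse-blocked). At day 3 Serpinb6b differed by 0.53 in mouse 1 and -1.54 in mouse 2, with no common direction. Cst7, the gene of cystatin F, which inhibits granule cathepsins, was 0.68 higher with Delta4-Ig in mouse 1 and 0.45 higher in mouse 2, and Cstb, the gene of cystatin B, was 0.27 and 1.06 higher, while Cst3, the gene of cystatin C, was 0.63 and 0.46 lower. None of these differences at day 3 passed.

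Genes of granzyme substrates gave 0 calls. Of 18 genes 11 were tested, with a median of -0.24 at day 3, 2 higher and 5 lower in both mice. Bid, the gene of a BCL2 family protein that granzyme B cleaves, differed by -0.18 in mouse 1 and -1.68 in mouse 2, and Nme1, the gene of a nuclease of the granzyme A pathway, by -0.18 in mouse 1 and -1.30 in mouse 2. Casp8, the gene of an initiator caspase, differed by 0.53 and Anp32a by 0.24.

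Among 20 tested regulators of cytotoxic genes, Eomes was the one that passed at day 3. Eomes, a T-box factor that drives perforin and granzyme B in CD8 T cells, was detected on 0 of 3 arrays with Delta4-Ig and on 3 of 3 with control Ig. It stood at 5.37 in mouse 1 and 5.48 in mouse 2 with Delta4-Ig, against 8.31 in mouse 1 and 8.07 in mouse 2 with control Ig, and was at least 4.57-fold lower with Delta4-Ig (limma adjusted p = 0.0159, mouse-blocked). The Delta4-Ig values in this test were below detection, so their closeness between the mice does not measure a spread of Eomes expression. Tbx21, the related T-box gene of T-bet, differed by -0.81 in mouse 1 and -1.06 in mouse 2 and did not pass at day 3. Over time Tbx21 rose with control Ig, by 3.71 with an SE of 0.41 (limma adjusted p = 0.0101, mouse-blocked). Runx1, a Runx family factor detected on 2 of 3 Delta4-Ig arrays, differed by -1.36 in mouse 1 and -0.99 in mouse 2 and did not pass.

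In the other direction, Nfil3, a basic leucine zipper factor of NK cell development, stood at 12.54 in mouse 1 and 13.54 in mouse 2 with Delta4-Ig, against 9.42 in mouse 1 and 12.05 in mouse 2 with control Ig at day 3. The difference of 3.12 in mouse 1 and 1.49 in mouse 2 did not pass (limma adjusted p = 0.0840, mouse-blocked). Over time Nfil3 rose with Delta4-Ig, by 3.35 with an SE of 0.57 (limma adjusted p = 0.0308, mouse-blocked). Id2, an inhibitor of E proteins in effector and NK cells, differed by 0.98 in mouse 1 and 2.43 in mouse 2 and did not pass. Bhlhe40, a factor induced by T cell activation, rose by 2.36 with Delta4-Ig and by 2.32 with control Ig over time and differed by -0.066 between stimuli at day 3. The 20 regulators had a median of -0.077, with 5 higher and 7 lower in both mice.

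Of 14 tested receptors and secreted products of cytotoxic lymphocytes, Cd226 passed at day 3, and the list had a median difference of -0.39, where 5 lay higher and 7 lower with Delta4-Ig in both mice. Cd226, the gene of an activating receptor of NK and T cells, stood at 7.95 in mouse 1 and 6.84 in mouse 2 with Delta4-Ig, against 10.25 in mouse 1 and 8.78 in mouse 2 with control Ig. It fell by 2.12 with an SE of 0.32 (limma adjusted p = 0.0392, mouse-blocked). Klrd1, the gene of CD94, differed by 0.20 in mouse 1 and 1.96 in mouse 2, and 1 of 3 arrays per stimulus detected it. Ccl5, a chemokine stored and released by cytotoxic cells, differed by -1.14 in mouse 1 and -1.46 in mouse 2, and Ifng by 2.61 in mouse 1 and -0.61 in mouse 2, and neither passed.

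Over time 4 of the 14 tested genes of this list rose with Delta4-Ig, where 2.63% of all tested genes rose. With control Ig 3 of them rose, where 2.41% of all tested genes rose. Ccl5 was detected in neither day 1 sample, and its day 3 level was at least 11.3-fold higher for Delta4-Ig and at least 25.5-fold higher for control Ig. Ifng, the gene of interferon gamma, rose by 4.51 with Delta4-Ig. With control Ig, whose day 1 sample did not detect it, Ifng was higher at day 3 by at least 37.5-fold. Ccl3, a chemokine of activated T cells, rose by 4.16 with Delta4-Ig and by 2.69 with control Ig, and Ccl4, its close relative, rose by 2.54 with Delta4-Ig. All of these calls come from the mouse-blocked fit, and the bounds compare the mean of both mice at day 3 with mouse 1 at day 1.

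The genes whose pattern over the 6 samples lay nearest to each member were found by the root mean square difference of the mean-centred log2 levels. For Nkg7 they were Lgals1, the gene of galectin-1, at 0.57, Prc1, of the mitotic spindle midzone, at 0.59 and Gja1, of gap junctions, at 0.62. For Ctsw they were Matk, the gene of a kinase that acts on SRC family kinases, at 0.35, Cyp2s1, of the cytochrome P450 family, at 0.45 and Dhdh at 0.65. Matk stood at 6.63 in mouse 1 and 10.43 in mouse 2 with Delta4-Ig, against 5.11 in mouse 1 and 6.18 in mouse 2 with control Ig at day 3, so that it too was far higher in 1 sample. For Prf1 ILMN_2960700 they were Cyhr1 at 0.20, Gstp2 at 0.22 and Ypel3 at 0.25, and for the dim probe Flywch1 at 0.27, Dhdh at 0.29 and Lat2 at 0.33. For Srgn ILMN_2722732, whose range was 1.04, they were Eri1 at 0.051, Manea at 0.11 and Nab1 at 0.12, and for ILMN_2751527 Satb1 at 0.10, Nab1 at 0.14 and Eri1 at 0.16. With 6 samples from 2 mice these likenesses describe the samples and carry no test.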

How the data were processed

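RNA of 6 samples was measured on 8 Illumina BeadChip arrays of 1 chip. The authors deposited a non-normalized table with linear intensity, and a detection p-value beside each intensity. They also deposited log2 values, whose scale is not stated. These differed by at most 0.0417 from limma's neqc (offset 16) of the intensities, so they were taken to be log2 intensity after background correction and quantile normalization. Their median was 5.28 on each array. Per the submitters' processing notes, GenomeStudio and limma were used, with no version given. The values used are the deposited log2 values.

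Technical arrays were averaged. Probes with a detection p-value under 0.01 on at least 2 of 8 arrays were kept, which left 10744 of 25697. Probe symbols were the RefSeq symbols of the annotated Entrez IDs, or the annotated symbol where RefSeq held no match. This gave 1 symbol for 23978 probes, several for 0 and none for 1719. The 4 groups were fitted with lmFit and eBayes of limma 3.58.1 in R 4.3.3 on all kept probes, with Benjamini-Hochberg adjustment and a threshold of 0.05. The fit was checked on simulated data. The main fit has no block and 2 residual degrees of freedom. The other fit holds the mouse as a block and has 1. The mouse number pairs the samples because the labels give it per animal, and the difference of mouse 2 minus mouse 1 correlated at r = 0.607 between stimuli over tested probes. Both day 1 samples come from mouse 1. A fold against a group whose arrays all failed to detect a probe is a lower bound. It sets the bright group's mean against, per array, the probe's value or the array's lowest detected signal, whichever is higher. The number of arrays limits the precision.

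The members and the lists of 121 related genes, of which 111 had a probe, were chosen with earlier results of these data known. Every probe of a member was named. From each list the genes past the threshold in a comparison, and the 2 with the largest and the 2 with the smallest difference at day 3, were named. Of each detected member the 3 nearest genes were named. A gene outside the members stands for its probe with the highest mean. Alternatives changed the normalization, background correction, offset, filter, block, technical arrays and samples.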

Additional observations from a re-analysis of the deposited data

Results flagged for a closer look

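Ctsw and a Prf1 probe differed between the stimuli in opposite directions on the days. For Ctsw, Delta4-Ig minus control Ig was 2.50 at day 3, the mean of 0.68 and 4.32 in the mice, and -0.91 at day 1. For Prf1 ILMN_1228333 it was 1.77 at day 3, the mean of 0.28 and 3.27, and -0.44 at day 1, where the probe was not detected. Ctsw also differed in opposite directions over time, by 2.40 with Delta4-Ig and by -1.01 with control Ig (day 3 mean minus day 1). The test of unequal change gave 3.41 for Ctsw, with an SE of 2.72, and 2.21 for Prf1 ILMN_1228333, with an SE of 2.07, and neither passed (limma adjusted p = 1.00 for both, with and without the mouse as a block). In mouse 1, where all 4 groups were measured, Ctsw differed between day 3 and day 1 by 0.016 with Delta4-Ig and by -1.58 with control Ig.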

How the results depend on the processing

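The number of mice and arrays and the brightness of the probes limit these results. Without the mouse as a replicate block limma called 0 probes in each of the 4 comparisons. The paired fit with the replicate block called 82 for the stimuli at day 3, 326 for time with Delta4-Ig and 313 for time with control Ig. With the block and 75th percentile scaling the counts were 264, 760 and 676, and 24 for the unequal change. With the block and no detection filter, and with the block and no background correction, the counts were 0 in each of the 4 comparisons. With the block, Nkg7 passed for time with both stimuli, and with the 75th percentile scaling too, at 4.16 and 4.66. The block changed no other call of a member. For Ctsw at day 3 the mouse-blocked limma adjusted p depended on the setting. It ran from 0.0539 with 75th percentile scaling to 0.798 without the detection filter, and Ctsw passed in none. Leaving out 1 sample at day 3 gave 0 to 13 calls between stimuli, 0 to 46 over time with Delta4-Ig, 0 to 9 with control Ig and 0 to 0 for the unequal change. Without either control Ig sample Nkg7 passed over time with Delta4-Ig (4.21). The blocked fit without 1 Delta4-Ig sample leaves no residual degree of freedom, so it could not be fitted.

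Of the member values, 381 kept their direction and, where tested, their side of the threshold. Another 6, all of Nkg7, passed that had not, and 17 changed sign. The 381 include the untested day 1 differences, which moved by less than the mean SD between the mice at day 3. For Prf1 ILMN_2960700 over time with Delta4-Ig, 0.40 became -0.65 with the block (with or without the filter), -0.51 with the block and no background correction and -0.64 with the block and 75th percentile scaling. For Srgn ILMN_2722732 over time with control Ig, -0.015 became 0.068 with the first arrays of mouse 1 only. Leaving out 1 sample moved the day 3 difference between -0.036 and 3.58 for Prf1 ILMN_1228333, -0.97 and 2.09 for Prf1 ILMN_2960700, and -0.11 and 0.93 for Srgn ILMN_2722732. Over time with Delta4-Ig, Prf1 ILMN_2960700 ran from -1.13 to 1.93. With control Ig, Prf1 ILMN_1228333 ran from -0.43 to 0.19, Srgn ILMN_2722732 from -0.54 to 0.51 and Srgn ILMN_2751527 from -0.79 to 0.48. The unequal change ran from -0.86 to 0.0017 for Nkg7, -0.41 to 2.65 for Prf1 ILMN_2960700, -0.14 to 0.90 for Srgn ILMN_2722732 and -0.064 to 1.20 for Srgn ILMN_2751527. The cause was not tested.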
